A study of Mus musculus with 12 samples.

Results

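G4 is a neural progenitor cell (NPC) clone of hybrid mouse cells, and its autosomal expression and allele use were set against the other 3 NPC clones grown from the same embryonic stem (ES) line. It is 1 of 12 samples of the series, and 10 of those samples have columns in the table used. Of 14415 autosomal genes, 11618 had at least 20 allele-informative counts in G4 and in each of the 3 other clones. Among these, 61 genes were monoallelic in G4, with at least 85% of counts from 1 allele, and biallelic in all 3 other clones, with at most 70% from either allele. A further 2 genes were silent in G4 alone, 16 were far above and 15 far below all 3 other clones in FPKM (a level corrected for transcript length and sequencing depth). No gene belonged to both the monoallelic set and an expression set. For silent genes the rules made this certain, since these needed fewer than 20 counts in G4. The other sets are small, at 0.525% of the 11618 genes for the monoallelic set. The genes far above and far below were 0.111% and 0.104% of autosomal genes, so the lack of overlap is no result about them. These classes were chosen by the measured shares and levels, so those values are given as a description.

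Polyadenylated RNA was sequenced as paired-end reads. All cells carry 1 genome of strain 129Sv and 1 of Cast/EiJ (Cast), so sequence variants tell which parental copy a read came from. The clones G4, 129, C2 and E1.2 are female (XX) and derive from ES line F1-21.6, and the clones mC3, mE6, mB4 and mG3 are male (XY) and derive from ES line F1-23. The labels give no treatment, and the samples used here differ by ES line, sex, clone and cell type. Clones 129, C2 and E1.2 are called sister clones below, and the clone named 129 is not the 129Sv allele. Each clone is 1 line expanded from NPCs and has 1 library here, so the spread over sisters is a spread between clones and no repeat of G4 itself was analysed.

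Most autosomal genes are read from both parental copies. For some, a cell uses 1 copy only and its descendants keep that choice, so a clone shows a single allele where another clone shows both or the other one. Imprinted genes differ in that the parent of origin sets the copy used.

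Total counts were 102153897 in G4 and 66611144, 100631463 and 119266777 in clones 129, C2 and E1.2. The chromosome medians of the 129Sv share in G4 lay between 49.8% and 50.3%. Of 22 neural progenitor markers 19 were in the table, and 18 of these had at least 1 FPKM in G4. Fabp7 was at 2694 FPKM, Olig1 at 922, Vim at 670 and Nes at 194. Their summed level was 6078 FPKM in G4 and 4870 to 5513 FPKM in the sisters, while the 4 pluripotency genes in the table summed to 3.08 FPKM in G4 and 2.27 to 4.15 FPKM in the sisters. The summed fibroblast, pericyte and mesenchyme markers reached 26.6 FPKM in G4 against 32.1 to 59.7 FPKM in the sisters. In these bulk cultures, fewer cells of a type and less RNA per cell cannot be told apart.

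The 61 monoallelic genes were 0.525% of the genes that could be called. The same rule with each sister in the place of G4 gave 212 genes for clone 129, 27 for C2 and 29 for E1.2. Clone 129 is also the library with the fewest counts, and the part of depth in its number was not tested. With at least 500 counts in all 4 clones, 35 genes were left for G4, 105 for clone 129, 9 for C2 and 13 for E1.2. In G4, 26 genes read mainly the 129Sv allele and 35 mainly the Cast allele. Their counts in G4 ran from 24 to 23531 with a median of 806, 14 had under 100 counts in at least 1 clone, and 10 are joined entries or unnamed transcripts. Another entry overlaps 7 of the 61, whose shares are uncertain where counts are shared. The number of genes depended on the sisters required to be biallelic. It was 127 without clone 129, 94 without E1.2 and 76 without C2. Each of these sets held all 61 genes by construction, since leaving out a sister only removes a requirement.

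Just inside the limit of 85% were Chga, with 85% of 180 counts from 129Sv, 1520402A15Rik, with 85.3% of 2346 counts from Cast, and Megf6, with 85.4% of 3397 counts from 129Sv. Just outside were Adamts5 at 84.8% of 1764 counts, Pura at 84.7% of 8940 counts and the noncoding RNA NR_045329 at 84.2% of 38 counts.

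**Figure D1:**
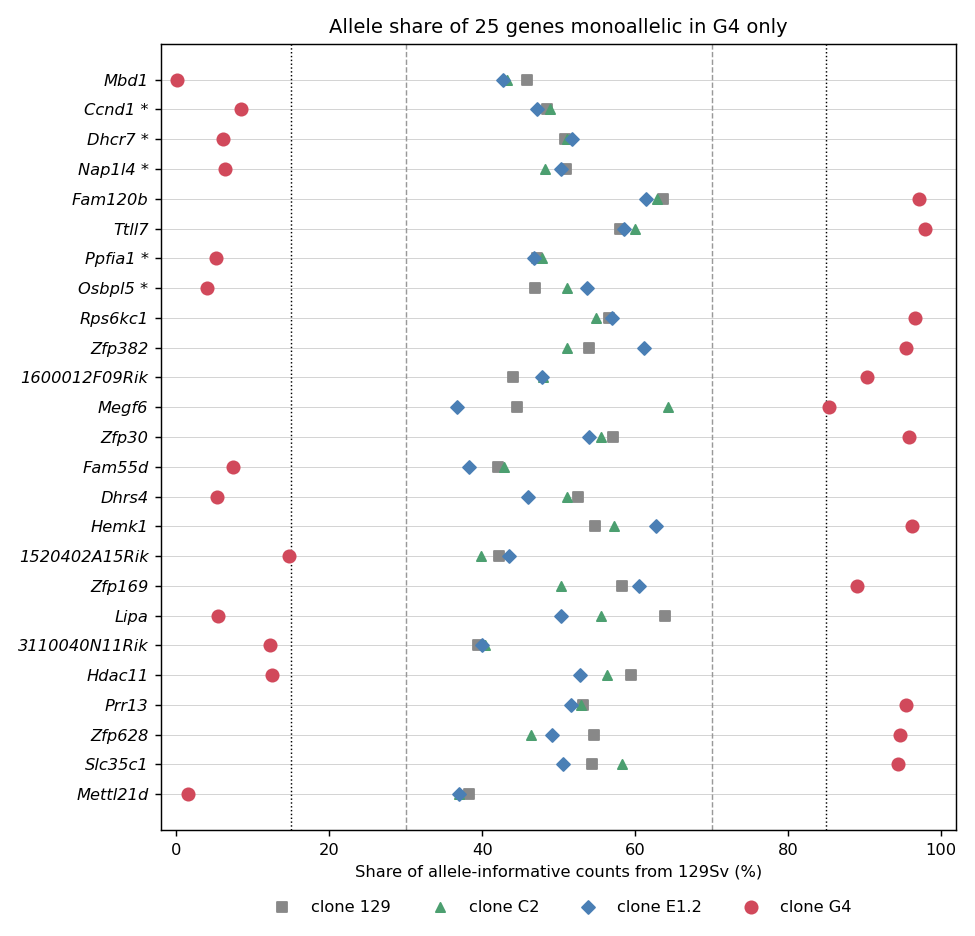
Share of allele-informative counts from the 129Sv allele (x axis, percent) in the 4 XX clones for the 25 genes with the most counts in G4 among those monoallelic in G4 only (y axis, ordered by counts; joined and unnamed entries left out; stars mark genes at the end of chromosome 7). Dotted lines mark 15% and 85%, dashed lines 30% and 70%; the rule places G4 outside the dotted lines and all sisters between the dashed ones, and Mbd1 sits at 0.123% in G4.

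Of the 61 genes, 12 lay at the distal end of chromosome 7, and all 12 read the Cast allele in G4. They ran from Nap1l4, which starts at position 150699459 of build mm9, to Tpcn2, which ends at 152469864, a stretch of 1.77 Mb. The end of Tpcn2 is 54.7 kb from the last base of the chromosome in that build. The table lists 19 genes in this stretch, 13 of which had 20 counts in all 4 clones. The only one of these outside the set was the unnamed transcript cuff_15983, whose 129Sv share was 11.9%, 10.3% and 9.47% in clones 129, C2 and E1.2 and 1.69% in G4. The borders were set at the first and last of these genes after their values were seen.

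Over the 12 genes the median 129Sv share was 5.01% in G4, with a range from 2.13% to 8.51%. The medians were 49.1%, 48.6% and 51.0% in clones 129, C2 and E1.2, between 48.7% and 50.6% in the 4 XY clones, and 46.7% in the XX and 47.4% in the XY ES line. The rule asked for biallelic sisters, so their medians were held near the middle in advance. The XY clones and the ES lines had no part in the rule, and none of them had the low median of G4 here. Mrgpre, which encodes an orphan G protein-coupled receptor, had 4.88% of only 41 counts from 129Sv in the XX ES line, the lowest share of the 12 genes there.

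Ccnd1, the cyclin D1 gene that drives entry into S phase, spans 152115835 to 152125830. Its 129Sv share was 48.5%, 48.9% and 47.2% in clones 129, C2 and E1.2 and 8.40% in G4 (95% Clopper-Pearson interval 8.03% to 8.77%, counting error only). Its level was 329, 307 and 341 FPKM in the sisters (326 ± 17.4, SD, n = 3) and 111 FPKM in G4. G4 was thus below all sisters in both measures. Both alleles were low. The 129Sv allele gave 18.8 CPM (counts relative to library size) in G4 against 313 ± 22.8 (SD, n = 3) in the sisters, and the Cast allele gave 205 CPM against 300 to 370 CPM. Of 42 cell cycle genes on the list that holds Ccnd1, 39 were in the table, with 4 above and 2 below all sisters in FPKM, beside 17.4% and 22.7% of all autosomal genes.

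Dhcr7 encodes the last enzyme of cholesterol synthesis and spans 151009071 to 151034315. Its 129Sv share was 50.8%, 51.1% and 51.7% in clones 129, C2 and E1.2 and 6.04% in G4. The level was 80.5, 69.8 and 56.8 FPKM in the sisters (69.0 ± 11.9, SD, n = 3) and 22.5 FPKM in G4, the largest gap of the 12 genes on the log2 scale, -1.58. Its Cast allele was also below all sisters, at 63.9% of their mean CPM.

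Nap1l4, a histone chaperone gene, had a 129Sv share of 51.0%, 48.2% and 50.3% in the sisters and 6.41% in G4. It had 90.8, 86.8 and 79.9 FPKM in clones 129, C2 and E1.2 and 40.0 FPKM in G4. Here the Cast allele stood at 94.5% of the sister mean, so the lower level lay almost wholly in the 129Sv allele. Cttn, the gene of the actin-binding protein cortactin, had 129Sv shares of 55.6%, 55.6% and 55.8% in the sisters and 5.84% in G4, with 57.7, 62.6 and 52.2 FPKM against 28.0 FPKM. Its Cast allele was at 106% of the sister mean.

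Osbpl5, which encodes an oxysterol-binding protein of lipid transport, departed from the others. Its 129Sv share was 46.9%, 51.1% and 53.7% in clones 129, C2 and E1.2 and 4.00% in G4, but its level of 14.4 FPKM in G4 lay within the 11.7, 20.8 and 13.9 FPKM of the sisters. The Cast allele gave 54.5 CPM in G4 and 24.1, 40.7 and 27.4 CPM in the sisters. It was the only 1 of the 12 genes whose Cast allele exceeded all sisters. Osbpl5, Dhcr7 and Dcn are on the list of imprinted genes, of which 42 of 62 were in the table, 4 above and 9 below all sisters in FPKM, beside the same 17.4% and 22.7% of all autosomal genes.

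Ppfia1, the liprin-alpha 1 gene, had 12.4, 13.4 and 11.7 FPKM in the sisters and 6.26 FPKM in G4, with 5.14% of its counts from 129Sv in G4. Fadd, the adaptor of death receptors, had 5.45, 6.29 and 5.64 FPKM in the sisters and 2.10 FPKM in G4, with 2.57% from 129Sv. The remaining 5 genes were Cars, the cysteinyl-tRNA synthetase gene, Nadsyn1, an NAD synthetase gene, Tpcn2, a lysosomal cation channel gene, Oraov1 and Mrgpre. Their 129Sv shares in G4 ran from 2.13% in Nadsyn1 to 8.51% in Cars, and each was below all sisters in FPKM.

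Across the 12 genes the median of log2(FPKM + 0.5) in G4 minus the sister mean was -1.09, with a range from -1.58 to -0.06, and 11 of 12 were below all 3 sisters. In the background of all 11618 genes, 24% were below all sisters and the median was -0.05. The 129Sv allele gave a median of 4.58% of the sister mean CPM (1.76% to 7.13%). The Cast allele gave a median of 77.3% (61.0% to 177%), and it was below all sisters in 6 genes and above them in 1. Over all 11618 genes the allele with more counts in G4 was below all sisters in 17.1% and above them in 25.2%. The 129Sv share was thus low in all 12 genes and the level in 11 of 12, but the Cast allele did not stand at 1 common value.

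Over the 23 genes before Nap1l4 shown in the plot of the chromosome end and having at least 100 counts in all 4 clones, the median 129Sv share in G4 was 49.9% and the median log2 FPKM difference was -0.07. Among them the joined entry Slc25a22;Lrdd, 2.08 Mb before Nap1l4, is also 1 of the 61 genes and reads Cast, with 57.8%, 63.3% and 48.2% from 129Sv in the sisters and 11.4% in G4. Cd81, a tetraspanin gene 0.461 Mb before Nap1l4 on the list of imprinted genes, had 51.0%, 51.4% and 51.5% in the sisters and 49.9% in G4. Tssc4, the next gene with enough counts, had 45.0% in G4 and 45.1% to 50.6% in the sisters. Between Tssc4 and Nap1l4 lie Kcnq1 and the noncoding RNA Kcnq1ot1, whose counts are almost the same because they overlap. Kcnq1ot1 is an imprinted transcript; its 129Sv share was 61.2% in clone 129, 68.6% in C2, 11.6% in E1.2 and 4.96% in G4. E1.2 was thus also low there, so the rule of biallelic sisters kept that locus out of the set. The share of G4 itself was low there, as in the 12 genes of the stretch. Cdkn1c, between Kcnq1ot1 and Nap1l4, had 11.1% of 9 counts from 129Sv in G4, too few counts to be called. Whether the low shares of G4 begin before Nap1l4 was not tested.

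6 genes of the stretch could not be called. Tnfrsf22, a decoy receptor gene, had 17 of 20 counts from 129Sv in G4 (85%) with 0 counts in clone 129, so it went the other way on few counts. Shank2, a synaptic scaffold gene, had 2.70% of 37 counts from 129Sv in G4 and 100% of 58 counts in E1.2. Tnfrsf26 and Ano1 had 0 counts in G4, and Tnfrsf23 and 1810010D01Rik had 4 and 18. These 6 genes were named after their values were seen.

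In windows of 2 Mb along all autosomes with at least 5 genes of at least 100 counts, 739 windows could be read. The median 129Sv share of G4 minus the median of the sisters' own medians differed by over 20 percentage points in 1 window only. That was chromosome 7 from 150 to 152 Mb, with 15 genes and a difference of -45.1 points. Most of these genes belong to the set and were chosen by the same shares, so this window is no independent evidence for the stretch. Kcnq1 and Kcnq1ot1, which have almost the same counts, are also among them. The next largest difference in G4 was 14.7 points. The same calculation for each sister against the others gave at most 21.1 points in size, in C2 on chromosome 8 over 5 genes.

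**Figure D2:**
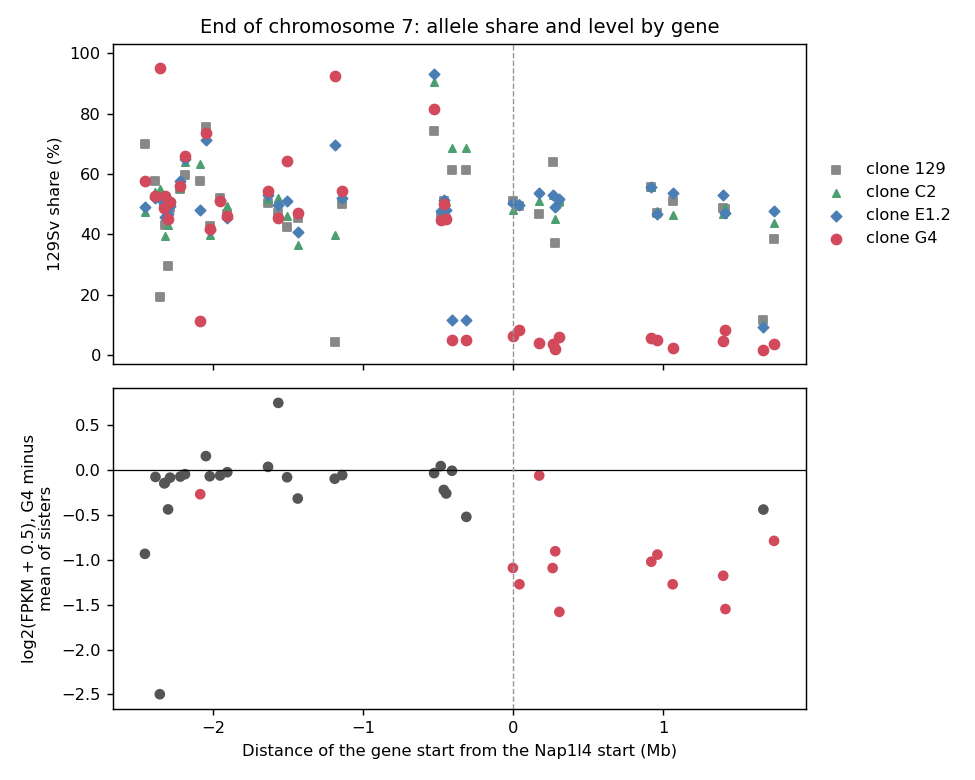
Genes at the end of chromosome 7 with at least 20 counts in all 4 clones, placed by the distance of their start from that of Nap1l4 (x axis, Mb). The upper panel gives the 129Sv share (percent) in each XX clone and the lower panel log2(FPKM + 0.5) in G4 minus the mean of the 3 sisters, in red for genes monoallelic in G4 only; to the right of the dashed line the G4 shares lie between 1.69% and 8.51%, while those of the sisters lie between 37.3% and 64.1% for the 12 genes of the set.

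The other 49 genes were spread over 17 of the 19 autosomes, with none on chromosomes 8 and 16, and 26 of them read 129Sv and 23 Cast. Chromosome 7 held 7 of them and the other 16 held 1 to 4 each.

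Mbd1, which encodes a protein that binds methylated CpG sites and represses transcription, had the most counts of the set. Its 129Sv share was 45.8%, 43.2% and 42.7% in clones 129, C2 and E1.2 and 0.123% of 23531 counts in G4 (95% Clopper-Pearson interval 0.0826% to 0.177%). Its level was 16.6, 14.8 and 16.9 FPKM in the sisters (16.1 ± 1.15, SD, n = 3) and 9.88 FPKM in G4. The Cast allele alone was at 108% of the sister mean, with 241 CPM against 217, 210 and 242 CPM, so G4 lay inside the sisters' range for the allele it kept.

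Hdac11, a histone deacetylase gene, had 129Sv shares of 59.4%, 56.4% and 52.8% in the sisters and 12.5% in G4. Among 6 entries named Zfp, which encode DNA-binding zinc finger proteins, 5 read 129Sv in G4 and Zfp229 read Cast. These 5 hold the Zfp628 locus 2 times, as Zfp628 and as a joined entry. The share of Zfp entries among all genes was not counted, so no excess can be read from these numbers. Zfp169 had 58.2%, 50.2% and 60.4% from 129Sv in the sisters and 88.9% in G4, with 1.54, 1.82 and 1.66 FPKM in the sisters and 0.703 FPKM in G4. Zfp628 went from 46.4% to 54.6% in the sisters to 94.6% in G4, but it lies within a joined entry, Zfp628;Nat14, at 95.6%, and the 2 entries share counts. Zfp628 is listed at about 0 FPKM in all 4 clones although counted.

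Zfp30 and Zfp382 lie 0.338 Mb apart in the zinc finger gene cluster of chromosome 7 and both read 129Sv in G4. Zfp30 (30569013 to 30581802) had 57.1%, 55.5% and 53.9% from 129Sv in clones 129, C2 and E1.2 and 95.8% in G4. Zfp382 (30906736 to 30925800) had 53.9%, 51.1% and 61.1% in the sisters and 95.4% in G4. The 11 genes with enough counts between them had 129Sv shares from 37.6% to 80.0% in G4, so the allele skew was not shared by the genes that separate them. They are thus not a run of neighbours. Apart from the 2 entries of Zfp628, the only such run outside the chromosome end was on chromosome 9. Hemk1, a methyltransferase gene for translation release factors, had 54.7%, 57.2% and 62.7% from 129Sv in the sisters and 96.2% in G4, and it overlaps an unnamed transcript. The next gene in the table, 6430571L13Rik, had 40.0%, 52.1% and 35.8% in the sisters and 93.5% of 185 counts in G4.

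The stretches before the start sites of these 2 pairs are shown because both genes of each pair read the same allele in G4. They are 250 bases upstream of the RefSeq start in build GRCm38.p6, whose coordinates are not those of mm9 used elsewhere here. The capitals mark each CG pair, the site of DNA methylation, which reads the same on both strands. The places are chr7:29783718-29783967 (Zfp30, plus strand), chr7:30121682-30121931 (Zfp382, plus strand), chr9:107338351-107338600 (Hemk1, minus strand) and chr9:107340390-107340639 (6430571L13Rik, plus strand).
Zfp30: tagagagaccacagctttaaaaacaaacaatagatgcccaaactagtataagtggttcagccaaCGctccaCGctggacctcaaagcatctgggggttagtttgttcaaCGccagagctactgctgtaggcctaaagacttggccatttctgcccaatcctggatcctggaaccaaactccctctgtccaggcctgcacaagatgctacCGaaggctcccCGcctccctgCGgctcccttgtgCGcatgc
Zfp382: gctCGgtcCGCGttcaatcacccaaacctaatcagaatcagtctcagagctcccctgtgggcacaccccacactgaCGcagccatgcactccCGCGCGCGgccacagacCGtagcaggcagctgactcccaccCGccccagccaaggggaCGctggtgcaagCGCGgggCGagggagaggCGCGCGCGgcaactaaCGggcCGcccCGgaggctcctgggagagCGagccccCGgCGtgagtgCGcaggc
Hemk1: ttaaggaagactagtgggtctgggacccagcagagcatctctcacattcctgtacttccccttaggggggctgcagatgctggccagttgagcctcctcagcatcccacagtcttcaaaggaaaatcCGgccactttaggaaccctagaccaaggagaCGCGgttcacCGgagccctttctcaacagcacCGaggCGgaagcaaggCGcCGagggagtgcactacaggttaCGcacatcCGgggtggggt
6430571L13Rik: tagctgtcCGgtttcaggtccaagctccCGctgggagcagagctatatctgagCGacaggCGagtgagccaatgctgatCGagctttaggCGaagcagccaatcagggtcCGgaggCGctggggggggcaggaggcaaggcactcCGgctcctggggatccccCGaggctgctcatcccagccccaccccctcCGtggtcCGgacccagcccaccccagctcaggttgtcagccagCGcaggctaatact
Zfp30 has 7 CG pairs in this window and Zfp382 has 25, so the pair differ although both were monoallelic. Hemk1 has 10 and 6430571L13Rik has 13, and their annotated starts are 2290 bases apart on opposite strands. A CG pair occurs in 91.7% of the 27025 windows of the same length in the table. Only 35 of the 61 genes had an entry, so a comparison of CG content between the set and other genes is void.

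Ttll7, a tubulin polyglutamylase gene on chromosome 3 (146515323 to 146646975), had 129Sv shares of 58.1%, 59.9% and 58.6% in the sisters and 98.0% in G4. Its level was 3.16, 6.02 and 4.70 FPKM in the sisters and 1.93 FPKM in G4, while the 129Sv allele alone stood at 98.2% of the sister mean CPM. Rps6kc1, a gene of the ribosomal S6 kinase family, had 56.6%, 54.9% and 57.0% in the sisters and 96.6% in G4. Fam120b, a nuclear receptor coactivator gene, had 63.6%, 62.8% and 61.4% in the sisters and 97.0% in G4, and its 129Sv allele reached 65.5 CPM in G4 against 43.9, 53.5 and 49.7 CPM. For Ttll7 and Rps6kc1 (101%) the allele kept in G4 gave about what it gave in the sisters, and for Fam120b it gave more than in any of them.

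Among genes of metabolism and transport, Dhrs4, a retinal reductase gene, had 52.6%, 51.1% and 46% from 129Sv in the sisters and 5.32% in G4, with 35.2, 25.9 and 27.6 FPKM against 14.0 FPKM. Lipa, the gene of lysosomal acid lipase, had 63.8%, 55.5% and 50.2% in the sisters and 5.49% in G4, with 9.71, 9.47 and 12.7 FPKM against 4.47 FPKM. Slc35c1, the Golgi GDP-fucose transporter gene, read the other allele, with 54.4%, 58.2% and 50.6% in the sisters and 94.4% in G4. Mettl21d, a lysine methyltransferase gene, had 38.2%, 37.0% and 37.0% in the sisters and 1.49% in G4. All 4 were below all sisters in FPKM.

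Megf6, a gene of a secreted protein with EGF repeats, was the least even of the named genes among the sisters, with 44.5%, 64.3% and 36.7% from 129Sv and 29.1, 6.83 and 4.78 FPKM in clones 129, C2 and E1.2. In G4 it had 85.4% and 1.89 FPKM. The other named genes were Fam55d and 3110040N11Rik, at 7.36% and 12.3% from 129Sv in G4, and 1600012F09Rik and Prr13, at 90.3% and 95.4%. Dcn, the proteoglycan decorin, had 86.7% of 45 counts from 129Sv in G4, with 0.155 FPKM there and 0.141, 0.151 and 3.02 FPKM in the sisters. Dhx58, a cytosolic RNA sensor gene of the interferon response, had 14.0% of 314 counts and 0.380 FPKM in G4. Neither Dcn nor Dhx58 was expressed above 1 FPKM in G4.

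Over all 61 genes the median log2 FPKM difference from the sisters was -0.75, and 45 genes were below all sisters and 1 above, beside 24% and 16.8% of all 11618 genes. Outside the chromosome 7 stretch the median was -0.66, with 34 of 49 below all sisters. Of the 24 genes outside it with at least 500 counts in all clones, 23 were below. The major allele alone gave a median of 101% of its sister mean CPM over the 49 genes and 97.8% over those 24, and the median over all 11618 genes was 101%. The range over the 49 was wide, from 20.7% (Rgs14) to 433% (the noncoding RNA NR_045984), and the major allele was above all sisters in 14 genes and below them in 5, beside 25.2% and 17.1% of all 11618 genes. These values come from the same counts as the shares that chose the genes, so a low total beside a lost allele is in part the same measurement.

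**Figure D3:**
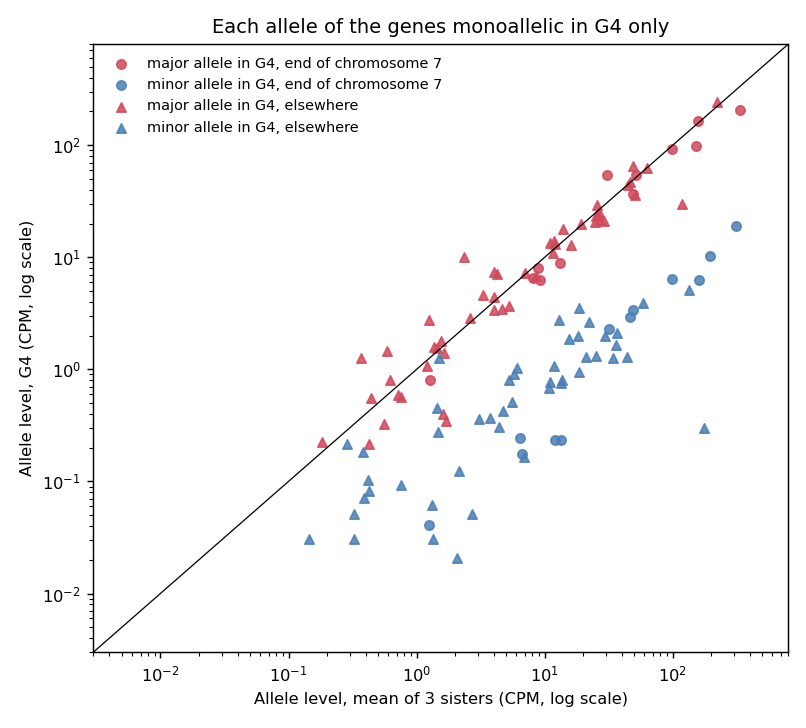
Level of each allele in G4 (y axis, CPM, log scale) against the mean of the 3 sisters (x axis, CPM, log scale) for the 61 genes monoallelic in G4 only; red marks the allele with more counts in G4, blue the other, circles the 12 genes at the end of chromosome 7 and triangles the other 49. The line marks equal levels, and 2 minor alleles at 0 in G4 (Rgs14 and Mlxipl) are not drawn; outside chromosome 7 the red points scatter about the line with a median of 101%.

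The allele ratio was tested over all 11618 genes with limma on log2 of 129Sv over Cast counts. With Benjamini-Hochberg adjustment 19 genes passed (0.164%), 8 toward 129Sv and 11 toward Cast, and 399 had an unadjusted p under 0.05. All 19 were among the 61, and 8 of them lay in the chromosome 7 stretch. Since the same shares chose the 61 genes, this is no independent evidence for them. Mbd1 had the largest difference among the named genes, -9.28 on the log2 scale (SE 0.11, limma adjusted p = 0.00632). Ttll7 differed by 5.06 (SE 0.10, limma adjusted p = 0.00819), Dhcr7 by -4.03 (SE 0.08, limma adjusted p = 0.00819) and Ccnd1 by -3.34 (SE 0.09, limma adjusted p = 0.0108). With 3 sisters the spread has 2 degrees of freedom, and G4 is assumed to vary like them. Without clone 129, 1 gene passed, and without C2 or without E1.2 none did. With all 8 NPC clones in the fit 46 genes passed, but Mbd1 did not (limma adjusted p = 0.9997), nor did it without C2 (limma adjusted p = 0.305) or without E1.2 (limma adjusted p = 0.183).

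The XY clones and ES lines had no part in the choice of the 61 genes. At least 1 XY clone was monoallelic for 9 of the 61, 14.8%, beside 8.84% of all 11618 genes. In 6 of the 9 an XY clone used the same allele as G4. Only 129Sv or Cast can be used, and no share over all genes was taken for this agreement, so it is a description only. In mC3 the monoallelic genes were 2 of 59 testable genes, beside 4.26% of all genes. In mE6 and mB4 they were 2 of 58 each, beside 4.6% and 3.83%, and in mG3 3 of 57, beside 4.33%. Mbd1 had 43.3%, 45.6% and 47.7% from 129Sv in mC3, mE6 and mG3 and 0.0475% of 12620 counts in mB4. Lipa had 53.5%, 61.1% and 52.5% in mC3, mE6 and mB4 and 0.0482% of 2075 counts in mG3. Both thus used the Cast allele in G4 and in 1 XY clone each. 1520402A15Rik read Cast in G4 and 129Sv in mB4, at 85% of 267 counts.

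In the XY ES line 2 of 56 genes were monoallelic, beside 3.58% of all genes. In the XX ES line, from which G4 derives, 5 of 55 were, beside 4.06%. These were Ttll7 at 90.7% of 86 counts from 129Sv, Fam55d at 99.3% of 146, Slit1 at 2.93% of 581, Mrgpre at 4.88% of 41 and 2310042D19Rik at 11.5% of 26. Ttll7 thus read 129Sv in both G4 and the ES line, Mrgpre read Cast in both, and the other 3 read opposite alleles. Slit1, Mrgpre and 2310042D19Rik were named after their values were seen.

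Genes silent in G4 alone were 2 of the 9634 with at least 1 FPKM in every sister (0.0208%). The rule asked for under 0.1 FPKM and fewer than 20 counts in G4. Fggy, a carbohydrate kinase gene on chromosome 4 (95224197 to 95593636), had 1.32, 1.16 and 2.70 FPKM in the sisters and 0.0953 FPKM in G4, with 365, 500 and 1497 counts against 19. The sisters used different alleles of Fggy, with 0.274% from 129Sv in clone 129, 96.8% in C2 and 1.94% in E1.2. Pf4, the platelet factor chemokine gene, had 4.20, 1.23 and 3.91 FPKM in the sisters and 0.0634 FPKM in G4, but on 51, 14 and 38 counts against 1. The same rule gave 61 genes for clone 129, 2 for C2 and 2 for E1.2. For G4 the count became 8 without clone 129, 6 without C2 and 3 without E1.2.

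The 16 genes far above all sisters were 0.111% of all autosomal genes, with FPKM + 0.5 at least 4 times that of the highest sister. The rule gave 18, 24 and 61 genes for clones 129, C2 and E1.2. The G4 count was 51 without C2 and 42 without E1.2. Myh11, the smooth muscle myosin heavy chain gene on chromosome 16 (14194619 to 14291516), had 0.370, 0.688 and 0.747 FPKM in clones 129, C2 and E1.2 and 11.1 FPKM in G4, 9.30 times the highest sister on that scale. Its allele share also stood apart, with 26.9% of 16912 counts from 129Sv in G4 and 65.2%, 40.9% and 45.8% in the sisters. Acta2, the smooth muscle actin gene, had 0.342, 0.376 and 0.349 FPKM in the sisters and 6.52 FPKM in G4. Its counts did not set G4 apart, at 58.2 CPM in G4 against 88.8, 60.5 and 56.6 CPM, and Acta2 overlaps Stambpl1 in the table, so this difference rests on the FPKM alone.

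Cyr61, a matricellular protein gene, had 4.41, 11.5 and 10.1 FPKM in the sisters and 97.9 FPKM in G4. Sostdc1, an antagonist of BMP and Wnt signals, had 0.0814, 1.48 and 0.196 FPKM in the sisters and 16 FPKM in G4. Sfrp1, a secreted Wnt antagonist, had 0.213, 0.451 and 0.133 FPKM in the sisters and 3.98 FPKM in G4. In the XY clones Sostdc1 lay between 2.38 and 9.96 FPKM and Sfrp1 between 1.49 and 3.81 FPKM, so for both genes every XY clone was above every sister. Cyr61 lay between 2.20 and 7.42 FPKM in the XY clones, below G4.

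Rgs16, a regulator of G protein signals, had 1.61, 1.82 and 0.728 FPKM in the sisters and 13.3 FPKM in G4, below the 15.7 to 49.6 FPKM of the XY clones. By CPM, Rgs16 was at 174 in G4 and 44.4, 55.5 and 14.1 in the sisters, less than 4 times the highest. Slc6a11, a GABA transporter gene of astrocytes, had 0.0283, 0.138 and 0.119 FPKM in the sisters, 2.95 FPKM in G4 and 8.04 to 10.9 FPKM in the XY clones. Cd109, a gene of a membrane-anchored protein that restrains TGF-beta signals, had 0.0143, 6.34 and 0.256 FPKM in the sisters and 34.9 FPKM in G4. It was read almost wholly from 129Sv in G4, at 99.4% of 17319 counts, and at 27.7% of 2490 counts in C2. Gbp2, an interferon-induced GTPase gene, had 0.0531, 0.168 and 0.205 FPKM in the sisters and 2.47 FPKM in G4.

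Pcdhgb6 and Pcdha10, members of the clustered protocadherins that give neurons distinct surface identities, reached 23.2 and 2.78 FPKM in G4. The sisters had 0.203, 1.09 and 1.51 FPKM for Pcdhgb6 and 0.0965, 0.0820 and 0.00972 FPKM for Pcdha10. Their counts cannot be given to 1 isoform because the cluster genes overlap and share exons. By CPM, Pcdhgb6 was at 1768 in G4 and 487, 1204 and 1175 in the sisters. Pcdha10 was at 239 CPM in G4 and 96.0, 115 and 31.6 CPM in the sisters. The other named genes of this class were Anks1b, C1qtnf3 and Scd4, at 6.78, 3.87 and 3.11 FPKM in G4, each at least 4.17 times the highest sister. Pcdhgb6 was at 13.7 and 21.7 FPKM in the XY clones mC3 and mB4 and at 0.404 and 0.338 FPKM in mE6 and mG3. Anks1b was at 7.91 FPKM in mB4, above G4.

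The 15 genes far below all sisters were 0.104% of autosomal genes, and the rule gave 118, 7 and 10 for clones 129, C2 and E1.2. The G4 count was 40 without clone 129, 33 without C2 and 25 without E1.2. Fkbp10, a collagen chaperone gene on chromosome 11 (100277007 to 100286154), had 33.1, 23.2 and 17.2 FPKM in the sisters and 0.740 FPKM in G4, and the lowest sister was 14.3 times above G4 on the scale of FPKM + 0.5. Ddr2, a collagen receptor kinase gene, had 5.08, 15.8 and 7.05 FPKM in the sisters and 0.651 FPKM in G4, and the XY clones had 0.309 to 21.5 FPKM.

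Tlr3, the endosomal receptor for double-stranded RNA, had 12.0, 20.9 and 16.6 FPKM in the sisters and 0.646 FPKM in G4, and the XY clones had 0.347 to 16.1 FPKM. The sisters read Tlr3 mainly from Cast, with 1.42%, 7.58% and 3.28% from 129Sv, and G4 had 36.2% of 1159 counts from 129Sv. Ifitm3, an antiviral membrane protein gene, had 10.2, 171 and 112 FPKM in the sisters and 1.94 FPKM in G4. The XY clones had 0.932 to 2.19 FPKM of Ifitm3 and the ES lines 425 and 437 FPKM, so G4 was at the level of the XY clones. Over the interferon and MHC list, 6 of 28 genes were above and 6 below all sisters, near those background shares.

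Scd1, the main fatty acid desaturase gene, had 122, 191 and 59.7 FPKM in the sisters and 5.03 FPKM in G4, while its neighbour Scd4 was far above, at 3.11 FPKM against 0.257, 0.366 and 0.290 FPKM. The allele share of Scd1 was 49.2%, 57.8% and 99.96% from 129Sv in clones 129, C2 and E1.2 and 98.0% of 1230 counts in G4, so G4 and E1.2 read mainly the same allele. Mgmt, a DNA repair methyltransferase gene, had 15.8, 19.95 and 16.1 FPKM in the sisters, 15.2 to 18.1 FPKM in the XY clones and 1.23 FPKM in G4. Magohb, a gene of the exon junction complex, had 6.50, 5.26 and 4.62 FPKM in the sisters, 13.6 to 20.4 FPKM in the XY clones and 0.345 FPKM in G4. G4 was thus the lowest of all 8 NPC clones for Mgmt and Magohb, on few counts. Mgmt had 25 counts in G4 against 272, 448 and 435 in the sisters, and Magohb 7 against 148, 241 and 174.

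Mdk, the growth factor midkine, had 22.1, 81.1 and 41.7 FPKM in the sisters and 2.75 FPKM in G4, but on 35, 313 and 116 counts against 5. Clic5, an intracellular chloride channel gene, had 30.4, 4.01 and 15.4 FPKM in the sisters and 0.240 FPKM in G4. Zfp770, Mical1 and Lrrc17 were at 0.959, 0.418 and 0.361 FPKM in G4, below 9.47, 4.13 and 3.37 FPKM in the lowest sister. Lrrc17 was lower still in the XY clones, at 0.0417 to 0.0986 FPKM. Snord15b, a small nucleolar RNA inside Rps3, was listed at 0 FPKM in G4 but had 29 counts there against 14, 44 and 58, so its counts did not set G4 apart. Fkbp10, Ddr2, Mdk and Lrrc17 also overlap another entry of the table, and reads from the overlap cannot be told apart.

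**Figure D4:**
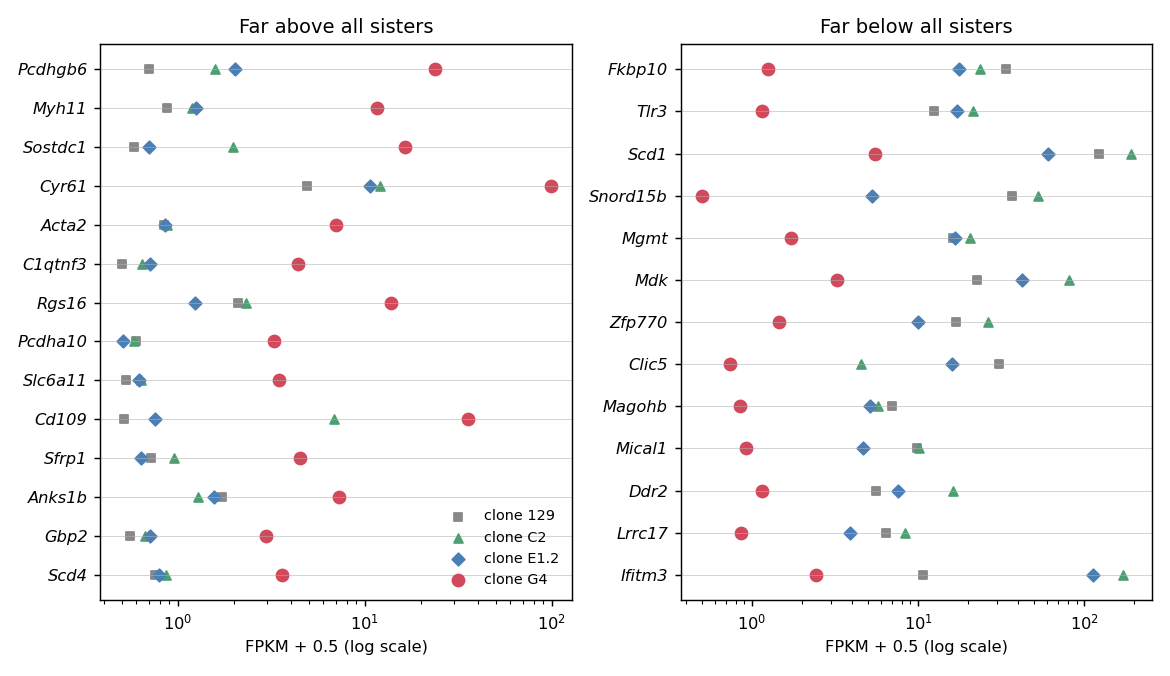
FPKM + 0.5 (x axis, log scale) in the 4 XX clones for the named genes far above (left) and far below (right) all sisters, ordered by the ratio to the nearest sister. Each point is 1 library. By the rule G4 lies at least 4 times outside the sisters in FPKM + 0.5. The counts of Acta2 and Snord15b do not set G4 apart. By CPM, Pcdhgb6, Pcdha10 and Rgs16 lie above all sisters but less than 4 times above the highest.

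The test of expression in G4 against the sisters called no gene. edgeR's quasi-likelihood test with Benjamini-Hochberg adjustment passed 0 of 14119 genes (0%), and 384 (2.72%) had an unadjusted p under 0.05. limma on log2(FPKM + 0.5) also passed 0, with 281 unadjusted. DESeq2 passed 122 (0.864%), 38 higher and 84 lower in G4. Of the 16 genes far above, 10 had an unadjusted edgeR p under 0.05 and 6 passed DESeq2, and of the 15 far below 12 and 11 did. Of the 61 monoallelic genes 21 had an unadjusted edgeR p under 0.05. The genes far above and far below were chosen by their levels in these same libraries, so their p-values are no independent evidence for them. The 61 genes were chosen by shares taken from the same counts. Differences in level named above describe 1 library against 3 and did not pass the edgeR test after adjustment.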

How the data were processed

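The members, gene lists and tests were chosen with earlier results of these data known. For every gene and library, the authors deposited allele-informative counts (whole numbers), the ratio of those counts from 129Sv (0 to 1, printed here in percent, and "nd" where the count is 0) and FPKM. Per the submitters' processing notes, SAMtools, Cufflinks 1.3.0 and TopHat 1.4.0 were run on mouse build mm9; which step made which column is not given in the sources used here. How reads over more than 1 variant were counted is not stated, so intervals cover counting error only. Genes that overlap share counts. Of the table's sample columns, 0 lacked a matching sample. Repeat libraries of C2 and mC3 were not analysed here.

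Counts were tested with edgeR 4.0.16 (R 4.3.3; TMM factors, filterByExpr, quasi-likelihood test), G4 against 3 sisters. The log2 ratio of 129Sv to Cast counts, each plus 0.5, was tested with limma 3.58.1 with a trend, over genes with at least 20 counts in all 4 clones. Both used a Benjamini-Hochberg adjusted p of 0.05. DESeq2 1.42.0 was an alternative. Nothing says that libraries came from repeated cultures, so p-values measure the spread between these clones. Both tests were run on simulated data, where the expression test missed many of the changes put in. A gene that did not pass the expression test is therefore not shown to be unchanged.

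Named were the 25 monoallelic genes with most counts in G4, up to 15 genes of each other class by size, genes of the lists that fell in a class, and the 3 genes on each side of the 85% limit, leaving out joined and unnamed entries. Other genes were named after their values were seen, among them those of the chromosome 7 stretch, of gene pairs and of the ES comparison. Promoter windows are RefSeq's (GRCm38.p6). Alternatives were other count, share, FPKM and pseudocount limits, other scalings, and leaving out each sister. One gene that the naming rule takes is not reported here.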

Additional observations from a re-analysis of the deposited data

Results flagged for a closer look

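Among the 4 XY clones, the 129Sv share of each of the genes monoallelic in G4 was searched for a clone far from the other 3. Of 56 genes tested, 6 had such a clone, and chance alone marks about 1 in 20 groups. Mbd1 had 0.0475% from 129Sv in mB4 and 43.3% to 47.7% in the others. Lipa had 0.0482% in mG3 and 52.5% to 61.1% in the others. Both low values are monoallelic for Cast, as in G4. For 1600012F09Rik, mC3 had 52.3% against 41.7% to 42.7%. Slit1 had 55.3% of 47 counts in mE6 against 81.6% to 84.7%. The unnamed transcript cuff_13216 had 30.1% in mB4 against 55.6% to 58.1%. Tpcn2, at the end of chromosome 7, had 36.5% in mE6 against 43.5% to 44.7%.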

How the results depend on the processing

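The 61 genes monoallelic in G4 only became 35 with at least 500 counts, 21 with the major share limit at 0.95, 27 with the sister limit at 0.60, 40 with FPKM of at least 1, 175 with any 2 sisters biallelic, and 76 to 127 without 1 sister. Silent genes, 2, became 4 under 0.5 FPKM, 0 with sisters at 3 FPKM, and 3 to 8 without 1 sister. Genes far above, 16, became 30 with a pseudocount of 0.1, 8 with 1, 5 at 8 times, 30 by CPM, and 18 to 51 without 1 sister. Genes far below, 15, became 30 with a pseudocount of 0.1, 5 at 8 times, and 25 to 40 without 1 sister. Acta2 reversed by CPM, at -0.21 on the log2 scale. No gene passed the expression test in any alternative but DESeq2, which gave 122. The 19 genes with a different allele ratio became 46 with all 8 NPC clones and 0 to 1 without 1 sister. Leaving out the end of chromosome 7, added after the data were seen, gave 11. The median level of the 61 genes, -0.75, was -0.82 with a pseudocount of 0.1, -0.65 with 1, and -0.66 without the end of chromosome 7 (also added). The cause of these shifts was not tested, beyond fewer sisters or genes entering each rule. Named genes' allele ratios gave 294 values under the alternatives, of which 0 reversed; for the genes that passed, 50 of 96 values no longer passed. The choice of the named genes by their shares had fixed the sign of these ratios, so the lack of reversals is no support for them. A single library stands for G4, genes under 100 counts in a clone have wide intervals, and overlapping genes share counts. No paired analysis was possible because the clones carry no replicate numbers that pair them.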

Other observations

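The list of regional identity holds the Hox genes and other transcription factors that mark positions along the neural tube. Of 44 such genes in the table, 16 were above and 4 below all sisters in FPKM, beside 17.4% and 22.7% of all autosomal genes, and the median log2 difference was 0.46. edgeR passed 0 of the 42 tested, with 3 at an unadjusted p under 0.05, and DESeq2 passed 1 higher and 1 lower, beside 2.72% and 0.864% of all genes tested. The genes below were named after their values were seen. Hoxc10, a posterior Hox gene, had 0.153, 1.87 and 0.249 FPKM in clones 129, C2 and E1.2 and 6.52 FPKM in G4. Nkx6-1, a factor of the ventral neural tube, had 1.46, 2.09 and 0.129 FPKM in the sisters and 9.57 FPKM in G4. Meis2, a Hox cofactor gene, had 7.24, 8.75 and 6.21 FPKM in the sisters and 21.2 FPKM in G4. Pax7, a factor of the dorsal neural tube, lay on the other side, with 2.02, 16.8 and 8.89 FPKM in the sisters and 0.432 FPKM in G4.

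Of 66 genes of Notch, Wnt, BMP, Shh and FGF signalling, 24 were above and 15 below all sisters, beside the same 17.4% and 22.7%. edgeR passed 0 of the 64 tested, with 5 at an unadjusted p under 0.05 (2.72% of all genes), while DESeq2 passed 2 higher and 1 lower (0.864% of all genes). Wnt7b, a Wnt ligand gene, had 16.8, 14.0 and 22.1 FPKM in the sisters and 63.7 FPKM in G4, and Wnt7a had 6.33, 12.2 and 9.47 FPKM in the sisters and 24.7 FPKM in G4. Notch2, a Notch receptor gene, had 15.8, 21.8 and 18.8 FPKM in the sisters and 35.6 FPKM in G4. Spry4, an inhibitor of FGF signals, was lower than in every sister, with 86.2, 68.5 and 94.8 FPKM there and 38.0 FPKM in G4. Axin2, a target gene of Wnt signals, had 13.6, 11.1 and 11.2 FPKM in the sisters and 9.29 FPKM in G4.

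Rnh1, a ribonuclease inhibitor gene on chromosome 7 before the stretch described above, had 0.0993 FPKM in clone 129, 0.749 FPKM in G4 and 22.4 and 25.1 FPKM in C2 and E1.2. Its 129Sv share was 19.2% of 26 counts in clone 129, 95.2% of 291 in G4, and 54.9% and 51.9% in C2 and E1.2.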
